A study of Mus musculus with 3 samples.

Results

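The myosin-binding protein genes examined were Mybpc1, Mybpc2 and Mybpc3, which encode the slow, fast and cardiac forms of myosin-binding protein C, and Mybph, which encodes myosin-binding protein H. They were chosen by gene symbol, and all 4 were found, each on 1 of the 24481 gene rows of the deposited tables. The labels describe the tissue as skeletal muscle and the mice as ICR, which is an outbred stock, aged 42 days after birth. The groups were exercise with a treatment labelled SQH, an exercise control and a control without exercise in its label, with 1 library per group and no other difference given in the labels. The study title names leaf extracts of the bamboo Sasa quelpaertensis and fatigue, while the labels name neither the muscle, the exercise, the SQH dose nor the number of animals in a library. Because each group had 1 library, no p-value was computed, and every error given is that of counting reads only, which leaves out variation between animals and between library preparations.

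Myosin-binding protein C is a rod of immunoglobulin and fibronectin domains that sits in regularly spaced stripes on the thick filament of the sarcomere. Its C-terminal part anchors on the myosin backbone and on titin, and its N-terminal part reaches towards myosin heads and actin, where it tunes cross-bridge activity. Each C form has its own gene. The slow form occurs as several splice variants in slow and also in fast skeletal fibres, the fast form marks fast fibres, and the cardiac form is a protein of heart muscle whose human gene is often mutated in hypertrophic cardiomyopathy. Myosin-binding protein H is a shorter relative that resembles the C-terminal part of the C forms.

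The 4 genes lie on different chromosomes of the mouse build GRCm38. Mybpc1 spans 88518279 to 88605152 on the minus strand of chromosome 10, Mybpc2 spans 44501699 to 44524656 on the minus strand of chromosome 7, Mybpc3 spans 91118144 to 91136516 on the plus strand of chromosome 2, and Mybph spans 134193448 to 134201232 on the plus strand of chromosome 1. Their annotated transcripts share no run of 30 bases with one another on either strand. The longest run common to any pair was 21 bases, between Mybpc1 and Mybpc2. Reads longer than that could therefore be placed on a single member.

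The promoters of the 3 detected members are shown because their transcripts behaved differently in the same libraries. Each line gives the 250 bases before the transcription start in RefSeq (GRCm38.p6), 5′ to 3′ on the strand of the gene, with E-boxes (CANNTG, the word read by MyoD family factors) in capitals.
Mybpc1: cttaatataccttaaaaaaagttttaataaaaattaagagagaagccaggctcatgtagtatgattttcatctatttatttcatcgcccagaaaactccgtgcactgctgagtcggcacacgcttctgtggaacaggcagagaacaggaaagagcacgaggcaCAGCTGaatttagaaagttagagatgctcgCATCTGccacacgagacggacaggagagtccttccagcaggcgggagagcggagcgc
Mybpc2: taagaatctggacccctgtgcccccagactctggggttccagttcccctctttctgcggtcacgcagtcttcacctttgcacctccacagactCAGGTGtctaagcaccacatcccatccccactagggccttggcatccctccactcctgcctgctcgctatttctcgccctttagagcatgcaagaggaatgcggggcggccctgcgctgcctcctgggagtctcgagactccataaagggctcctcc
Mybph: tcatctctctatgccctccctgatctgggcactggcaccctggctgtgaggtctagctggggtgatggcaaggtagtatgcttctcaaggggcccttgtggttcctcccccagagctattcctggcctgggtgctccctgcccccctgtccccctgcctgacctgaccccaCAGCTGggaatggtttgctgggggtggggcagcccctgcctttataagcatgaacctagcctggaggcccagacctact
The windows are chr10:88605153-88605402, chr7:44524670-44524919 and chr1:134193198-134193447. Mybpc1 had 2 E-boxes, at bases 164 to 169 and 194 to 199. Mybpc2 had 1, at bases 94 to 99, and Mybph had 1, at bases 172 to 177. At least 1 E-box was present in 66.2% of 32851 promoter windows of this length, so its presence does not set these genes apart. The word CATTCC, known as the MCAT element of TEAD factors, was found on the reverse strand of Mybph at bases 178 to 183, directly after its E-box, and on the reverse strand of Mybpc2 at bases 189 to 194. It occurred on either strand in 12.6% of all windows. The TATA word TATAAA was found in Mybph, on the reverse strand at bases 212 to 217, and occurs in 12.4% of windows. The MEF2-type word, CTA and TAG with any 4 bases between them, present in 3.20% of windows, was in none of the 3 printed promoters. The promoter of the undetected Mybpc3, not printed here, had 1 such match, at bases 161 to 170, and 3 E-boxes. These are matches of letters, and no binding was measured.

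Values are deposited log2 levels of library-scaled reads from the 3′ end of transcripts. In such libraries reads do not increase with transcript length, so levels of different genes were set side by side without a length correction, although the capture of different 3′ ends may differ. The spacing of low values gave about 12.4 M reads for exercise plus SQH, 8.12 M for the exercise control and 10.8 M for the control. The members' reads are approximate, since they rest on that spacing. The muscle marker Acta1 stood at 19.01, 18.34 and 18.56 in exercise plus SQH, exercise control and control, and all 10 genes of the skeletal muscle identity list passed the expression minimum. A row was tested when its mean linear level over the 3 libraries was at least 66.5, which left 7857 rows, and was called higher or lower at a 2-fold difference, 1 on the log2 scale. Mybpc1, Mybpc2 and Mybph passed the minimum, and Mybpc3 did not.

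**Figure D1:**
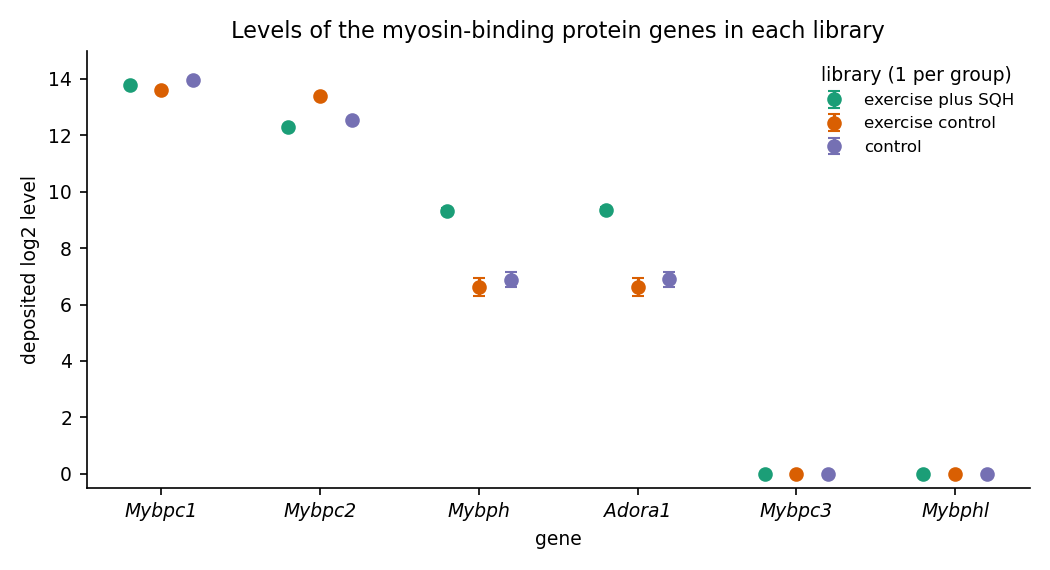
Deposited log2 level (vertical axis) of the 4 members and of Adora1 and Mybphl in each library, exercise plus SQH, exercise control and control from left to right within a gene. Bars are 95% counting intervals, mostly smaller than the points; Mybpc1 lies between 13.61 and 13.95, Mybpc2 between 12.29 and 13.41, Mybph between 6.62 and 9.32, and Mybpc3 at 0.

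Mybpc1, the gene of the slow form, was the most abundant member in every library. Its level was 13.77 in exercise plus SQH, 13.61 in the exercise control and 13.95 in the control, or about 18237, 10510 and 16901 reads. It ranked 66th, 77th and 64th among the rows above 0 in these libraries. The levels lay within 0.35 of one another on the log2 scale, and the exercise control was the lowest.

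Mybpc2, the gene of the fast form, came next in every library. Its level was 12.29 in exercise plus SQH, 13.41 in the exercise control and 12.53 in the control, or about 6556, 9168 and 6294 reads. The exercise control stood above both other libraries, which differed from each other by 0.24.

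Mybph was far less abundant. Its level was 9.32 in exercise plus SQH, 6.62 in the exercise control and 6.89 in the control. These correspond to about 837 reads (95% Poisson interval 781 to 895), 83.0 reads (66.1 to 103) and 126 reads (105 to 150). Exercise plus SQH stood alone above both other libraries, whose counting intervals on the log2 scale, 6.29 to 6.93 and 6.62 to 7.14, overlapped.

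Mybpc3, the cardiac form, was listed at 0 in all 3 libraries. A 0 stands for no read in the exercise control, which allows up to 3 reads, or 0.369 per M reads, by counting error alone. In the exercise plus SQH and control libraries a 0 may also be 1 read. Mybphl, the gene of a myosin-binding protein H-like protein of the heart that is not among the members, was likewise listed at 0 in all 3.

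A list of heart muscle genes was read beside Mybpc3, several of which, such as Myh6, are also known from slow skeletal fibres. Of its 14 genes, 4 were listed at 0 in exercise plus SQH, 7 in the exercise control and 6 in the control. Myl7, Gata4 and Nkx2-5 were at 0 in all 3 libraries. Some others, all under the expression minimum, were higher in exercise plus SQH than in both other libraries. At such low levels the values rest on few reads. Exercise plus SQH was also the deepest library, at about 12.4 M reads against 8.12 M in the exercise control and 10.8 M in the control. Tnni3, the cardiac troponin I gene, stood at 4.36 in exercise plus SQH, 1.27 in the exercise control and 0.90 in the control, a difference of 3.47 ± 1.06 between exercise plus SQH and the control. Ryr2 (3.31), Nppb (1.77) and Tbx5 (1.77) were above 0 in exercise plus SQH and at 0 in both other libraries. Nppa, the atrial natriuretic peptide gene, stood at 2.21, 0.30 and 0.90 in exercise plus SQH, exercise control and control, and Hcn4 was above 0 in the control (3.11) and at 0 in both other libraries. The 2 tested genes of the list, Myh6 and Actc1, were both lower in exercise plus SQH than in the control, with a median of -1.39. Actc1 stood at 8.61, 7.515 and 11.00 in exercise plus SQH, exercise control and control, and was called lower against the control (-2.39 ± 0.07). Both genes were called higher against the exercise control. The summed linear level of the list was 7940, 694 and 11892, most of it from Myh6 at 12.86, 8.90 and 13.25. The slow-fibre myosin gene Myh7 had the same order, at 14.57 in exercise plus SQH, 11.00 in the exercise control and 14.91 in the control. Mybpc3 was undetected in all 3 libraries, and whether Myh6 reads came from heart muscle or from slow skeletal fibres was not tested.

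Together the detected members took 2068 per M reads in exercise plus SQH, 2434 in the exercise control and 2164 in the control. Mybpc1 made up 71.2% of these reads in exercise plus SQH (95% Wilson interval 70.6 to 71.7), 53.2% in the exercise control (52.5 to 53.9) and 72.5% in the control (71.9 to 73.0). Mybpc2 made up 25.6%, 46.4% and 27.0% in the same order of libraries. Mybph made up 3.27% in exercise plus SQH (3.06 to 3.49), 0.420% in the exercise control (0.339 to 0.520) and 0.540% in the control (0.454 to 0.643). The slow and fast C genes were thus close to equal in the exercise control, where Mybpc1 reads were 1.15 times Mybpc2 reads, against 2.69 times in the control. In exercise plus SQH the ratio was 2.78. This ratio is taken within a library and does not depend on a scaling factor between libraries.

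**Figure D2:**
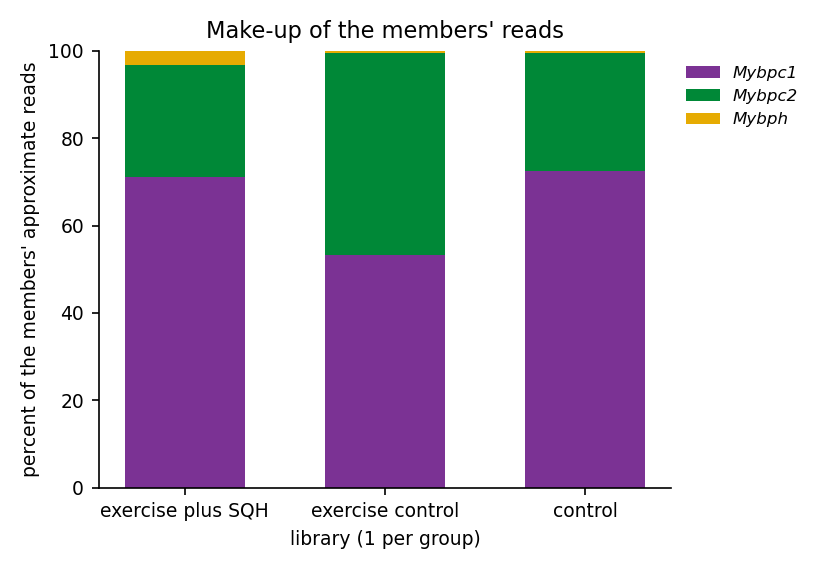
Percent of the approximate reads of Mybpc1, Mybpc2 and Mybph (vertical axis) that each gene takes in the exercise plus SQH, exercise control and control libraries, as stacked bars. Mybpc2 takes 46.4% in the exercise control and 25.6% and 27.0% in exercise plus SQH and the control; the Mybph band is widest in exercise plus SQH at 3.27%.

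The first comparison, of the exercise control with the control, asked how the members differed between the exercised and unexercised groups that had no SQH. None of the 3 tested members was called in either direction, where 8.29% of all tested rows were called, 2.95% higher and 5.33% lower. Mybpc2 came closest, higher by 0.88 ± 0.02 (counting SE), or 1.84-fold, with 4.25% of tested rows above it. Mybpc1 was lower by a log2 difference of -0.35 ± 0.02, just above the lower quartile of all tested rows at -0.38. Mybph differed by -0.26 ± 0.20, with a 95% counting interval of -0.66 to 0.14, so no difference of Mybph was detectable at this depth. The median over all tested rows was -0.05.

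The slow and fast C genes can be read beside the other contractile genes of their fibre types, from lists chosen with earlier results of these data known. The slow-fibre contractile list of 16 genes had 13 called lower and none higher in this comparison, with a median difference of -3.39. The smallest difference in the list was -0.29, for Csrp3, a Z-disc protein gene, and Mybpc1 at -0.35 lay beside that end. The slow myosin heavy chain gene Myh7 stood at 11.00 in the exercise control and 14.91 in the control (-3.92 ± 0.04). As a result, Mybpc1 was 6.11 times as abundant as Myh7 in the exercise control but 0.514 times as abundant in the control. In bulk tissue, fewer fibres of a type and less RNA per fibre cannot be told apart. Of 16 fast-fibre contractile genes, 1 was called higher and none lower, with a median of 0.40 and 14 above 0. Mybpc2 at 0.88 stood above that median and below the highest list member, Myoz1, a Z-disc gene of fast fibres, at 1.01. Myh4, the myosin gene of the fastest fibres, differed by 0.42.

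**Figure D3:**
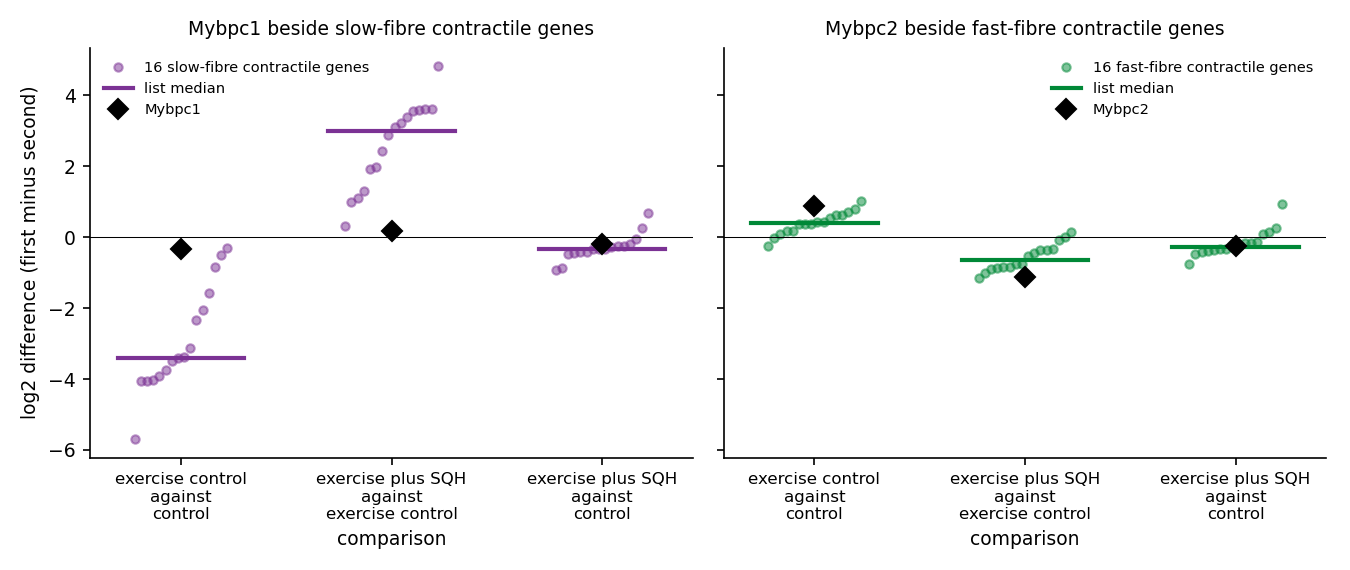
Log2 difference (vertical axis, first group minus second) of Mybpc1 beside 16 slow-fibre contractile genes (left) and of Mybpc2 beside 16 fast-fibre contractile genes (right) in the 3 comparisons; circles are genes, lines list medians and diamonds the member. Mybpc1 stays between -0.35 and 0.16 while the slow-fibre medians are -3.39, 2.999 and -0.33; Mybpc2 takes 0.88, -1.12 and -0.24 beside fast-fibre medians of 0.40, -0.63 and -0.27.

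Among 20 genes of the thick filament and M-band, 19 were tested in the same comparison, with 2 called higher, 2 lower and a median of 0.20. The lower ones were Myh7 and Myom3, the gene of an M-band protein that links thick filaments (-1.94 ± 0.05). The higher ones were Mylk4, a myosin light chain kinase family gene (1.13 ± 0.04), and Trim63, which encodes the M-band ubiquitin ligase MuRF1 (1.06 ± 0.04). The other M-band genes Myom1 (0.02) and Myom2 (0.56) and the titin gene Ttn (-0.28) were not called. Uncalled genes of this list ran from -0.48 (Fhl1) to 0.79 (Myh1). Mybpc1, at -0.35, lay within that range, and Mybpc2, at 0.88, lay above it and below the called Trim63. Markers of nerve moved in the same libraries. Of 10 nerve and Schwann cell genes 5 were tested, and all 5 were called higher in this comparison. None of the 10 was at 0 in any library, and their summed linear level was 1384 in exercise plus SQH, 4497 in the exercise control and 1322 in the control. Their part in the members' differences was not tested.

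The second comparison, of exercise plus SQH with the exercise control, concerned the treatment in exercised muscle. Mybph was called higher and Mybpc2 lower, so 2 of 3 tested members were called, where 8.01% of tested rows were called in either direction, 5.68% higher and 2.33% lower. All rows split into 446 higher and 183 lower, or 356 and 252 with each library centred on its median. Mybph stood at 9.32 in exercise plus SQH and 6.62 in the exercise control, a difference of 2.70 ± 0.17. This is 6.50-fold, with a 95% counting interval of 5.19 to 8.15, and it ranked 37th from the top of the tested rows. Mybpc2 stood at 12.29 in exercise plus SQH and 13.41 in the exercise control, a difference of -1.12 ± 0.02, and 1.45% of tested rows lay lower. Mybpc1 differed by 0.16 ± 0.02, inside the range between the quartiles of tested rows, which ran from -0.27 to 0.36.

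The exercise control library enters this comparison and the one against the control, so a low or high value of that library alone gives opposite signs in both. For Mybpc2 the values were 0.88 with the exercise control on top and -1.12 with it below. For Mybpc1 they were -0.35 and 0.16. For Mybph they were -0.26 and 2.70, so its gap to exercise plus SQH was far wider than its gap to the control.

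In exercise plus SQH against the exercise control the fast-fibre list had 2 genes called lower and none higher, with a median of -0.63. They were Myh4 (-1.16 ± 0.01) and Atp2a1, the fast calcium pump gene (-1.01 ± 0.01). Mybpc2, at -1.12, lay between these. After quantile normalization Myh4 was no longer called (-0.64), and the other call remained. The Mybpc2 to Myh4 ratio was nearly the same in both libraries, with Myh4 14.9 times as abundant as Mybpc2 in exercise plus SQH and 15.4 times in the exercise control, against 21.2 times in the control. The slow-fibre list had 14 of 16 genes called higher and a median of 2.999, again with Mybpc1 near 0. Of the tested thick filament and M-band genes, Myh7 (3.57 ± 0.04) and Myom3 (1.54 ± 0.05) were called higher and Myh4 lower, with a median of -0.09. All 5 tested nerve and Schwann cell genes were called lower, with a median of -1.79. Of 6 tested genes of the developing or regenerating fibre list, which does not hold Mybph, 2 were called higher and none lower, with a median of 0.47. They were Myog, a muscle differentiation factor gene (1.59 ± 0.10), and Actc1, the cardiac actin gene also known from developing skeletal muscle (1.10 ± 0.13). Of 3 tested adipocyte genes, Cfd and Cidea were called higher, with a list median of 1.25. The summed linear level of the 10 adipocyte genes was 5196 in exercise plus SQH, 3530 in the exercise control and 4200 in the control, with 1, 4 and 2 genes at 0. No tested tendon gene was called. The part of these lists in the members' differences was not tested.

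**Figure D4:**
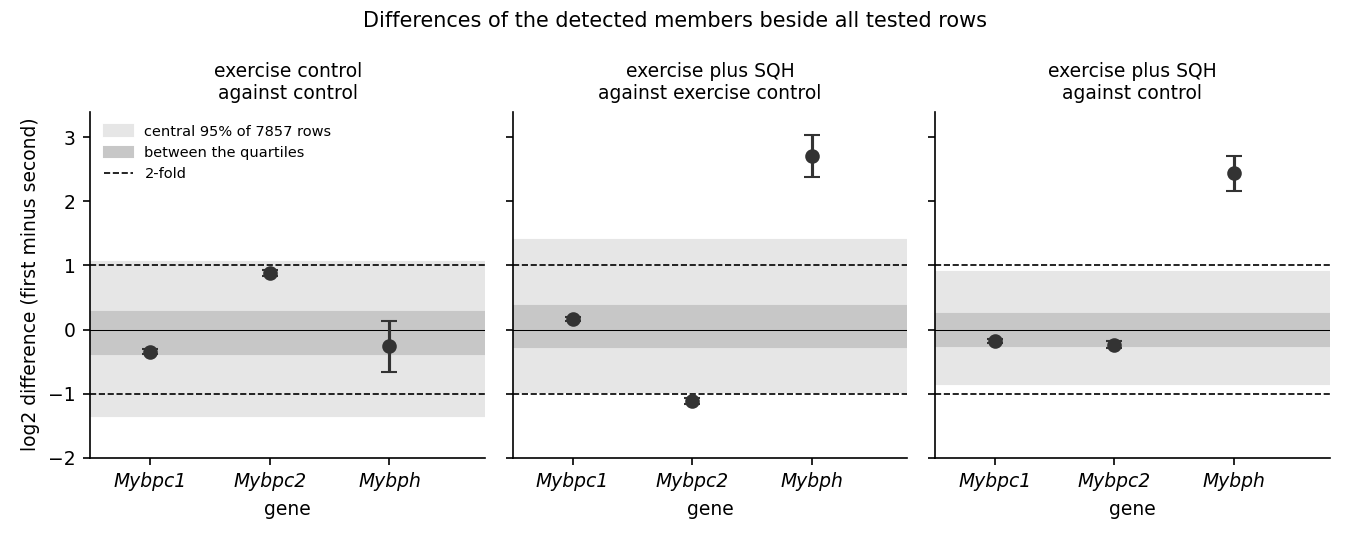
Log2 difference (vertical axis, first group minus second) of Mybpc1, Mybpc2 and Mybph in the 3 comparisons, with 95% counting intervals as bars. Light grey covers the central 95% and dark grey the range between the quartiles of all 7857 tested rows, and dashed lines mark 2-fold; Mybph lies at 2.70 and 2.44 in the comparisons with exercise plus SQH on top.

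Exercise plus SQH against the control is the comparison without the exercise control library. Mybph was called higher, and neither other tested member was called, where 3.02% of tested rows were called, 1.76% higher and 1.26% lower. All rows split into 138 higher and 99 lower, or 167 and 75 when libraries were scaled without the ribosomal precursor RNA Rn45s. Mybph stood at 9.32 in exercise plus SQH and 6.89 in the control, a difference of 2.44 ± 0.14, or 5.42-fold with a counting interval of 4.49 to 6.54. It ranked 9th from the top of the 7857 tested rows, directly after Adora1, its partner at the same locus. Mybpc1 (-0.18 ± 0.02) and Mybpc2 (-0.24 ± 0.03) were both slightly lower, beside list medians of -0.33 for slow-fibre genes and -0.27 for fast-fibre genes. No gene of the slow-fibre, fast-fibre or thick filament and M-band lists was called in this comparison as deposited, and Trim63, at 0.97, was called after quantile normalization (1.002). The developing or regenerating fibre list, in which Mybph has no place, had 6 tested genes, 1 of them called lower and none higher, with a median of -0.04. The gene called lower was Actc1 (-2.39 ± 0.07), at 8.61 in exercise plus SQH and 11.00 in the control. The tested nerve and Schwann cell genes had none called and a median of 0.05. Tendon genes had 4 of 6 tested called higher and a median of 1.10. In the exercise control against the control, 3 of these 6 were called higher and 1 lower, with a median of 1.20. The summed linear level over 9 tendon genes was 1633 in exercise plus SQH, 1878 in the exercise control and 1074 in the control, with 1 gene at 0 in the control. The 3 tested adipocyte genes of 10 had 1 called higher and a median of 0.72. Their part in the Mybph value was not tested.

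The reads of Mybph cannot be assigned to it alone, because Adora1, the adenosine A1 receptor gene, lies on the opposite strand with its 3′ part across the 3′ part of Mybph. In GRCm38 Adora1 spans 134199223 to 134235431 of chromosome 1, and 1162 exonic bases are common to both, which is 49.9% of the exonic bases of Mybph. The common bases fall in 3 blocks, 134199714 to 134199850, 134199950 to 134200136 and 134200395 to 134201232. The first 2 are coding exons of Mybph. The third is its last exon, of which 14 bases are coding and 824 are 3′ untranslated, and all 3 lie in the 3′ untranslated region of Adora1. The last 500 exonic bases of Mybph, from which 3′ reads would come, lie wholly in the Adora1 exon.

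**Figure D5:**
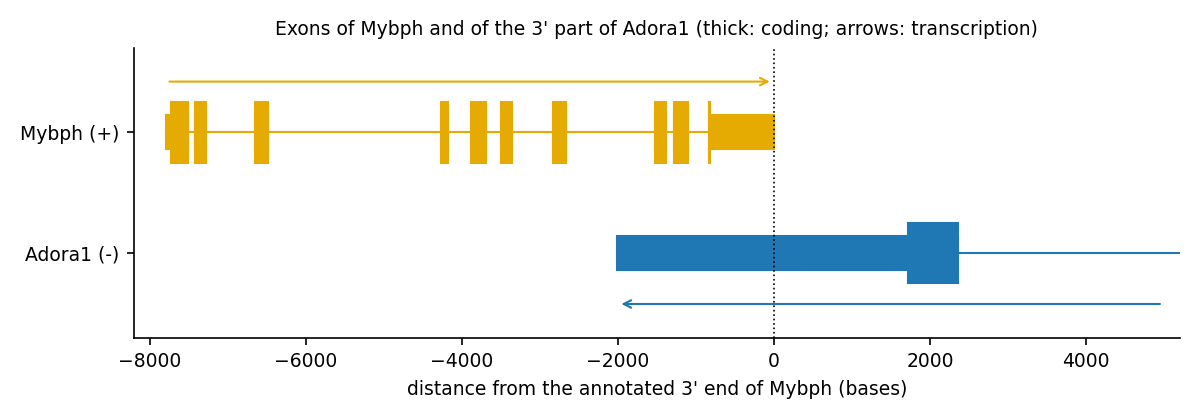
Exons of Mybph (plus strand, above) and of the 3′ part of Adora1 (minus strand, below) against distance in bases from the annotated 3′ end of Mybph; thick boxes are coding and arrows give the direction of transcription. The last 838 bases of Mybph lie within the Adora1 exon, which runs from 2009 bases before the Mybph end to 2358 bases after it.

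The deposited values of both genes were almost equal in every library. Adora1 stood at 9.35 in exercise plus SQH, 6.62 in the exercise control and 6.90 in the control, against 9.32, 6.62 and 6.89 for Mybph. In approximate reads, Adora1 exceeded Mybph by about 14.0 in exercise plus SQH, by 0.0575 in the exercise control and by 0.964 in the control. The exercise control value is below 1 read and comes from the last deposited digit, 6.624 against 6.623. The Mybph value was 98.4%, 99.9% and 99.2% of the Adora1 value. The last 300 exonic bases of each of the 4 annotated Adora1 transcripts contain 0 bases of Mybph exons, whereas those of both annotated Mybph transcripts lie in the Adora1 exon for all 300. Reads at the annotated Adora1 ends would thus be in the Adora1 value and not in the Mybph value, and the excess of Adora1 was the read numbers given above. The strand of the reads is not given in the sources used here, so strand could not be used to tell these genes apart. The 5.42-fold and 6.50-fold values are those of the locus, and which gene the shared reads came from was not tested. Of 541 gene pairs that share exonic bases on opposite strands and both pass the minimum, 20 pairs (3.70%) agreed within 0.05 in every library, as Mybph and Adora1 did with a largest gap of 0.02. The median of the largest gaps was 1.27. Mybpc1 and Mybpc2 overlap no gene that has a row in the tables.

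The genes with the most similar pattern over the 3 libraries were found by Euclidean distance between log2 levels, each taken relative to the gene's own mean, among 7511 candidate genes. For Mybph the nearest was Adora1, at a distance of 0.02, followed by Sv2b, which encodes a synaptic vesicle glycoprotein, at 0.06. Sv2b stood at 9.11 in exercise plus SQH, 6.34 in the exercise control and 6.68 in the control. Next came Atf3, a stress-induced transcription factor gene, at a distance of 0.42, and Ctgf, a connective tissue growth factor gene, at 0.65. Of the candidates, 2 lay within 0.2 of Mybph, Adora1 included, against 63 for Mybpc2 and 1183 for Mybpc1. A fixed distance of 0.2 takes in more genes around a near-flat pattern, as of Mybpc1, than around large differences, as of Mybph. The counting errors of the Mybph differences were themselves 0.14 to 0.20. These counts therefore do not rank how unusual each pattern is. The nearest genes to Mybpc2 were Fbln5, an elastic fibre gene (0.01), Gpd2, the mitochondrial glycerol-3-phosphate dehydrogenase gene (0.04), Zfp955b (0.06) and Pon3 (0.06). Those nearest to Mybpc1 were Tmod3, a tropomodulin gene (0.004), Erh (0.01), the zinc transporter gene Slc30a4 (0.01) and Bola2 (0.01). With 3 libraries such distances describe these libraries only.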

How the data were processed

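Skeletal muscle RNA (500 ng per sample, Trizol) was made into Lexogen QuantSeq 3′ libraries, per the labels' protocols. Bowtie2, edgeR and mm10 appear in the submitters' processing notes, without versions or roles. The sources used here do not give the counter, annotation or strand handling. The deposited files hold log2 values, 1 library each, and what 1 read is worth was worked out from the spacing of low values. Up to a linear value of 9, 84.4% (exercise plus SQH), 95.7% (exercise control) and 100% (control) of values lay within 0.2 step of a whole multiple of steps of 0.766, 1.188 and 0.939. No count model was fitted. Differences are of deposited log2 values, and counting standard errors come from approximate reads. Intervals are at 95% and cover counting error only. Members, lists and motifs were chosen with earlier results of these data known. Named genes outside the members are called list members, and for each member the 4 genes nearest in pattern; further list genes were named after their values were seen. Positions and exons are those of GENCODE M21. No protein sequences were compared. Alternatives were centring, quantile normalization, scaling without Rn45s, 2 added before the log, a 3-fold threshold and no expression minimum. Python 3.11.15, numpy 2.4.6, pandas 2.3.3 and scipy 1.17.1 were used. The values of 1 gene of the thick filament and M-band list are not reported here.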

Additional observations from a re-analysis of the deposited data

How the results depend on the processing

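The differences of Mybpc1, Mybpc2 and Mybph kept their direction and their side of the 2-fold threshold in all 36 recomputations (centring, quantile normalization, scaling without Rn45s, and 2 added before the log). These vary the scaling and leave counting error as it was. For Mybph in the exercise control against the control, the counting interval spanned 0 (-0.66 to 0.14), so its direction stays unsettled. Mybph ranged from 2.60 to 2.70 in exercise plus SQH against the exercise control and from 2.40 to 2.50 against the control. Mybpc2 ranged from -1.21 to -1.12 in exercise plus SQH against the exercise control. Mybpc1 ranged from 0.065 to 0.25 in exercise plus SQH against the exercise control (0.16 as deposited) and from -0.23 to -0.02 against the control (-0.18 as deposited). Within exercise plus SQH, quantile normalization put Mybpc1 over Mybpc2 at 1.53, against 1.48 as deposited.

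A 3-fold threshold called 42 rows higher and 125 lower in the exercise control against the control, 136 and 23 in exercise plus SQH against the exercise control, and 29 and 15 in exercise plus SQH against the control. Without the expression minimum these were 1841 and 2418, 2558 and 1638, and 1872 and 1495. After quantile normalization, exercise plus SQH against the exercise control had 0 thick filament and M-band genes and 1 fast-fibre gene called lower, Myh4 having left both counts, and exercise plus SQH against the control had 1 thick filament and M-band gene, Trim63, called higher. The cause of these shifts was not tested, apart from the stricter and looser thresholds themselves. Mybph rests on about 83.0 reads in the exercise control, so its precision is limited by that library. No paired analysis was possible because each group has 1 library.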
